A study of Homo sapiens with 36 samples.

Results

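The comparison set 3 PERK KO libraries against 3 wild type libraries of the human embryonic stem cell line H1, all collected at day 5 of cardiomyocyte differentiation. They are 6 of the 36 bulk RNA-seq libraries in the series and were chosen by their genotype and day labels, and every gene in the tables was included, 58721 in all, of which 19772 passed the filter on low counts and were tested. The study followed both genotypes at days 0, 1, 2, 3, 5 and 10, with 3 replicates per genotype and day. The PERK KO group consisted of H1 cells labelled as lacking PERK, the product of EIF2AK3, and the wild type group of unedited H1 cells. Cells of both genotypes were grown on Matrigel in E8 medium, reseeded with the ROCK inhibitor Y-27632, and given 5 µM CHIR99021, a GSK3 inhibitor that activates WNT signalling, from day 0 to day 1, and 3 µM IWP2, which blocks WNT secretion, from day 2 to day 5. Heparin was present at day 5 in both groups and insulin had not yet been added. How PERK was deleted, and whether the edited line was a single clone, is not given in the sources used here. Nothing states that the replicates were separate differentiations, so the p-values measure only the spread between these libraries.

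PERK sits in the membrane of the endoplasmic reticulum (ER) and, when unfolded proteins accumulate there, phosphorylates the translation factor eIF2alpha. General protein synthesis then slows, while translation of ATF4, a transcription factor for amino acid and stress genes, increases. In the differentiation itself, the WNT pulse moves pluripotent cells through a primitive streak and a cardiac mesoderm state, and WNT blockade then favours cardiac progenitors, which switch on NKX2-5, GATA4, ISL1 and TBX5 before the sarcomere genes. Pluripotent cells that receive no mesoderm-inducing signal are known to take an anterior neural fate.

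The PERK KO libraries held 16.6, 17.5 and 18.7 M counts, and the wild type libraries 17.7, 18.7 and 23.3 M counts. Levels are given as CPM, each count scaled to the size of its library. Replicates within PERK KO were closer to each other than those within wild type, with a median SD over genes of 0.0927 against 0.178 on the log2 CPM scale. Fold changes moved with base composition: over 5 bins of genes by GC content, the median log2 fold change was 0.65 in the lowest bin and -0.47 in the highest. An offset for GC content, added to the fit once these values were known, brought the medians of all bins to between -0.04 and -0.01 and gave 11814 called genes, against 11675 without it. The part of GC content in single results was not tested beyond that fit.

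EIF2AK3 (ENSG00000172071.11, chr2:88556741-88627576, GRCh38), the gene labelled as knocked out, had 16.8, 15.9 and 17.0 CPM in the PERK KO libraries, against 17.4, 22.3 and 20.1 CPM in the wild type libraries. All wild type libraries stood above all PERK KO libraries, the nearest by a small margin. Its log2 fold change of -0.27 ± 0.20 (SE) did not pass (edgeR quasi-likelihood test with Benjamini-Hochberg adjustment, adjusted p = 0.25). Its value depended on the correction: with the GC content offset it was -0.70 (edgeR adjusted p = 5.13e-07), and with the transcript length offset it turned sign, at 0.04 (edgeR adjusted p = 0.912). Because the site of the edit is not given, the gene's total count does not check the label.

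At day 5 the genotypes differed over most of the transcriptome. EdgeR called 11675 of 19772 genes (59.0%), of which 5647 (28.6%) were higher and 6028 (30.5%) lower in PERK KO, with 7276 (36.8%) called and at least 2-fold apart. The median log2 fold change over all genes was -0.02. For 14365 genes (72.7%) the libraries of the genotypes did not overlap, with all PERK KO libraries above wild type for 7053 (35.7%) and below it for 7312 (37.0%). With so many calls, a gene list is described here by its counts in each direction beside these shares of all genes, and by its median. Unless days are named, rose, fell, increase, decrease and loss compare PERK KO with wild type at day 5 and do not describe change over days. In bulk RNA, fewer cells of a type and less RNA per cell cannot be told apart.

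The labelled stage is the cardiac progenitor stage, and the wild type libraries carried its markers while the PERK KO libraries did not. The summed level of 7 cardiac progenitor markers was 5.69 to 9.29 CPM in PERK KO and 1591 to 1922 CPM in wild type. The 7 cardiomyocyte markers summed to 55.4 to 59.9 CPM in PERK KO and 4208 to 5920 CPM in wild type. In the other direction, 6 pluripotent markers summed to 4541 to 4766 CPM in PERK KO and 984 to 1086 CPM in wild type, and 6 neuroectoderm markers to 546 to 602 CPM in PERK KO and 78.6 to 97.4 CPM in wild type. None of the 3 skeletal muscle markers passed the filter on low counts. For the PERK KO libraries, day 5 is therefore a collection time and not a marker-defined stage.

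**Figure D1:**
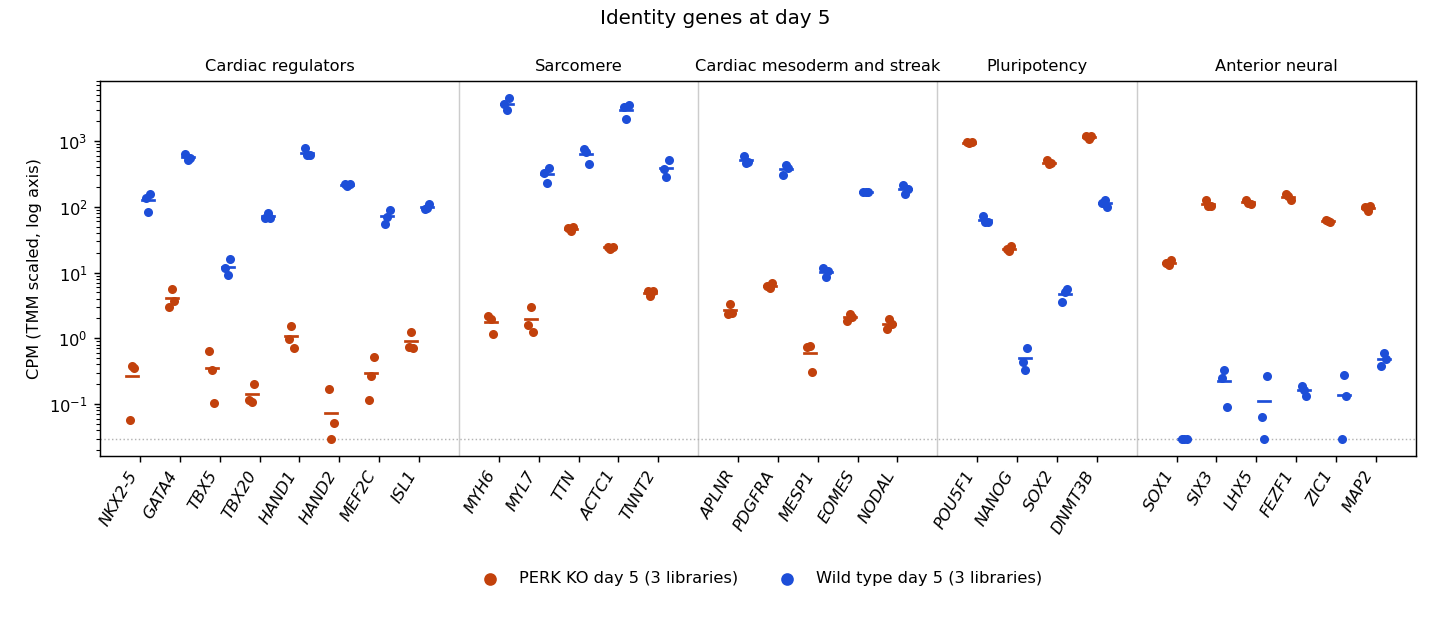
CPM on a log axis for 28 identity genes in each day 5 library, with PERK KO to the left of wild type at every gene and a bar at each group mean; values under 0.03 CPM are drawn on the dotted line. Cardiac, sarcomere, mesoderm and streak genes sit lower in all PERK KO libraries (MYH6 at 2.18, 2.00 and 1.18 CPM) and pluripotency and anterior neural genes sit higher.

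The 10 protein-coding genes with the largest called decrease were GUCY1A1, a nitric oxide receptor subunit, HAND2, MYH6, SMYD1, CYSLTR2, HOXB4, PGM5, TBX2, ST3GAL1 and NDRG1. GUCY1A1 had no count in the PERK KO libraries and 20.8, 19.6 and 25.3 CPM in wild type, at least 411-fold lower when set against a floor of 3 counts over the group. CYSLTR2, a leukotriene receptor, was likewise at 0 in PERK KO, against 8.99, 11.1 and 13.8 CPM in wild type (at least 214-fold lower). Neither gene belongs to the cardiac lists, and both were among the steepest losses of the day.

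PGM5, a cell adhesion protein of muscle, had 0.0575, 0.0540 and 0 CPM in the PERK KO libraries, against 52.7, 45.5 and 52.3 CPM in the wild type libraries. It was lower by 1393-fold (95% counting interval 385 to 11510.0). ST3GAL1, a sialyltransferase, had 0, 0.108 and 0.0511 CPM in PERK KO and 61.9, 56.0 and 51.6 CPM in wild type. NDRG1, a stress and differentiation gene, had 0, 0 and 0.102 CPM in PERK KO and 39.6, 39.1 and 35.2 CPM in wild type, with ratios of 1033-fold (95% counting interval 353 to 5012) and 1046-fold (95% counting interval 289 to 8644). A handful of counts in PERK KO set those ratios, so their upper bounds are wide.

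The 10 largest differences toward higher levels in PERK KO were SOX1, LHX5, FEZF1, MAGEA12, OLIG3, SIX3, ZIC1, FGF19, WFIKKN2 and MAP2. Of these, SOX1, LHX5, FEZF1, OLIG3, SIX3 and ZIC1 are transcription factors of the early neural plate and brain. MAGEA12, a cancer-testis gene of a family of near-identical copies on the X chromosome, had 4.65, 5.84 and 6.03 CPM in PERK KO and no count in wild type (at least 104-fold higher). Its reads cannot be cleanly separated from those of its copies. WFIKKN2, a secreted binder of the growth factors GDF8 and GDF11, had 23.6, 25.02 and 23.2 CPM in PERK KO and 0, 0.111 and 0.0892 CPM in wild type (log2 fold change 8.27 ± 0.53, edgeR adjusted p = 1.97e-14).

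Cardiac transcription factors had the lowest median of the 50 gene lists. Of 20 tested members 18 were lower (90.0%, against 30.5% of all genes) and 2 higher, with a median log2 fold change of -6.74. NKX2-5, which specifies the heart field, had 0.0575, 0.378 and 0.358 CPM in the PERK KO libraries, against 137, 83.4 and 158 CPM in the wild type libraries. GATA4, its partner in activating cardiac genes, had 2.99, 5.57 and 3.68 CPM in PERK KO and 631, 514 and 542 CPM in wild type. The groups were apart by orders of magnitude at both genes, with log2 fold changes of -8.84 ± 0.50 and -7.10 ± 0.32 (edgeR adjusted p = 4.59e-15 and 6.47e-18).

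The GATA family members GATA5 and GATA6 moved with GATA4, at -6.67 and -6.76. Among T-box factors, TBX5, which marks the first heart field, had 0.632, 0.324 and 0.102 CPM in PERK KO and 11.6, 9.23 and 16.2 CPM in wild type. TBX20, needed for chamber growth, had 0.115, 0.108 and 0.204 CPM in PERK KO and 68.0, 79.0 and 68.0 CPM in wild type. TBX2, a repressor active in non-chamber myocardium, had 0.230, 0.540 and 0.102 CPM in PERK KO and 386, 288 and 352 CPM in wild type (log2 fold change -10.18 ± 0.54, edgeR adjusted p = 5.37e-15). All wild type libraries lay above all PERK KO libraries at these T-box genes, as for 37.0% of all genes.

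The paired bHLH factors HAND1 and HAND2, which pattern the ventricles and the outflow tract, were both nearly without counts in PERK KO. HAND1 had 0.977, 1.51 and 0.715 CPM in PERK KO and 770.0, 615 and 611 CPM in wild type. HAND2 had 0.172, 0 and 0.0511 CPM in PERK KO and 225, 203 and 219.9 CPM in wild type (log2 fold changes -9.28 ± 0.53 and -11.42 ± 0.68, edgeR adjusted p = 5.93e-15 and 3.7e-15). ISL1, the second heart field marker, had 0.747, 1.24 and 0.715 CPM in PERK KO and 92.7, 96.5 and 109 CPM in wild type. None of these genes reached 2 CPM in a PERK KO library. MEF2C, a myogenic activator, had 0.115, 0.2702 and 0.511 CPM in PERK KO and 54.6, 69.3 and 89.9 CPM in wild type. The MEIS factors, HOX cofactors of the heart field, fell unequally, with log2 fold changes of -6.73 ± 0.25 for MEIS1 and -3.10 ± 0.18 for MEIS2. The 2 members that rose were named after their values were seen. TBX1, a pharyngeal factor, had 7.12, 4.05 and 5.37 CPM in PERK KO and 0.443, 1.16 and 0.624 CPM in wild type. IRX4, a ventricular factor, had 0.575, 0.324 and 0.664 CPM in PERK KO and 0, 0 and 0.134 CPM in wild type.

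Sarcomere genes were abundant in wild type at day 5 and mostly near 0 in PERK KO. Of 16 thick filament genes 14 were lower and none higher (median -5.11), and of 22 thin filament and Z-disc genes 18 were lower and 2 higher (median -3.74). MYH6, the atrial myosin heavy chain, had 2.18, 2.00 and 1.18 CPM in the PERK KO libraries, against 3643, 2939 and 4468 CPM in the wild type libraries. The groups did not overlap, and the log2 fold change was -11.01 ± 0.51 (edgeR adjusted p = 1.19e-17). MYH7, the neighbouring near-identical myosin gene whose reads are shared by estimation, was low in both groups, with 0.0575, 0.0540 and 0 CPM in PERK KO and 3.36, 2.43 and 3.84 CPM in wild type.

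Myosin light chains followed, MYL4 with 1.09, 1.03 and 0.613 CPM in PERK KO and 719, 519.5 and 700.2 CPM in wild type. MYL7, the atrial light chain, had 1.61, 3.03 and 1.23 CPM in PERK KO and 320.2, 229 and 393 CPM in wild type. TTN, the giant spring protein of the sarcomere, was at 47.2, 42.9 and 49.7 CPM in PERK KO and 762, 689 and 439 CPM in wild type (log2 fold change -3.76 ± 0.51, edgeR adjusted p = 2.11e-07). Its wild type libraries spread from 439 to 762 CPM, all above PERK KO. The myosin folding and assembly factors SMYD1 and UNC45B were close to 0 in PERK KO. SMYD1 had 0.287, 0.162 and 0 CPM in PERK KO and 273, 245 and 299 CPM in wild type. UNC45B had 0.460, 0.162 and 0.307 CPM in PERK KO and 234, 208 and 249.6 CPM in wild type.

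On the thin filament, ACTC1, cardiac actin, had 24.7, 23.0 and 24.8 CPM in PERK KO and 3260.0, 2138 and 3494 CPM in wild type. TNNT2, cardiac troponin T, had 5.23, 4.32 and 5.21 CPM in PERK KO and 378, 279 and 508 CPM in wild type. TNNI1, the troponin I of embryonic heart, fell further, with 3.10, 3.57 and 3.27 CPM in PERK KO and 1417, 912 and 1352 CPM in wild type (log2 fold change -8.53 ± 0.45, edgeR adjusted p = 2.17e-16). At each of these genes the genotypes did not overlap, as was so for 72.7% of all genes. XIRP1, an actin-binding protein of the intercalated disc, and TMOD1, which caps the thin filament, had log2 fold changes of -9.28 ± 0.55 and -6.45 ± 0.30. The 2 members that rose encode skeletal muscle forms. ACTA1, skeletal actin, had 15.3, 13.7 and 14.6 CPM in PERK KO and 1.14, 1.44 and 1.70 CPM in wild type. TNNT1, a slow skeletal troponin T, had 44.7, 47.9 and 40.7 CPM in PERK KO and 26.8, 25.1 and 21.4 CPM in wild type. TNNI3, the adult cardiac troponin I, did not pass (7.76, 7.997 and 8.02 CPM in PERK KO and 8.93, 6.47 and 8.12 CPM in wild type, edgeR adjusted p = 0.969). These 3 genes were named after their values were seen.

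The CArG box, the serum response factor motif, was searched on both strands in RefSeq promoters (the 250 bases before the start, GRCh38.p14). It stood in 1.16% of 35116 promoters and in 5 of 28 sarcomere promoters with an entry, those of MYL7, MYOM1, ACTC1 and LDB3, which were lower, and ACTA1, which was higher. The MYL7 stretch before its start is shown because it carries the box close to the start of a gene with a large loss. It lies at chr7:44141333-44141582 on the minus strand, 250 bases, with the box in capitals.
MYL7: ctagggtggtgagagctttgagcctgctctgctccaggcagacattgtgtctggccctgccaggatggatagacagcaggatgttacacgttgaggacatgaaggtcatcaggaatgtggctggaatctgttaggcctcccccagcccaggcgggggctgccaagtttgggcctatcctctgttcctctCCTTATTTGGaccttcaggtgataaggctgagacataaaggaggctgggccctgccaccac

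Calcium handling genes were mostly lower. Of 16 tested, 11 were lower and 1 higher (median -1.75). JPH2, which holds the sarcolemma to the sarcoplasmic reticulum, had 1.21, 1.41 and 1.28 CPM in PERK KO and 154, 121 and 137 CPM in wild type. SLC8A1, the sodium-calcium exchanger, had 0.747, 0.756 and 0.664 CPM in PERK KO and 32.9, 30.2 and 57.9 CPM in wild type. The L-type channel genes CACNA1C and CACNA1D fell, with log2 fold changes of -3.18 ± 0.25 and -3.39 ± 0.29 (edgeR adjusted p = 3.89e-12 and 1.22e-11), and PLN, the brake on the calcium pump, had 0, 0.0540 and 0 CPM in PERK KO and 2.41, 2.93 and 5.58 CPM in wild type. These genes encode the coupling, exchange and entry of calcium. None overlapped between the genotypes, as was so for 72.7% of all genes. ATP2A2, the pump itself and a housekeeping ER gene as well, was slightly higher in PERK KO, with 362, 346 and 368 CPM in PERK KO and 261, 291 and 253 CPM in wild type (log2 fold change 0.42 ± 0.14, edgeR adjusted p = 0.0129), a call lost without wild type replicate 3. RYR2, the calcium release channel, had 21.6, 18.9 and 25.4 CPM in PERK KO and 30.8, 30.5 and 41.1 CPM in wild type and did not pass (edgeR adjusted p = 0.124), while it was called lower with the GC content offset (-0.77, edgeR adjusted p = 0.0306). The natriuretic peptide genes were at a few CPM at most in both groups, with NPPB at 1.26, 1.73 and 1.28 CPM in PERK KO and 3.61, 4.31 and 4.77 CPM in wild type.

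Cardiac channel genes gave 10 lower and 4 higher members of 16. KCNH2, the rapid delayed rectifier, had 14.8, 14.3 and 13.5 CPM in PERK KO and 187, 149.5 and 174 CPM in wild type. KCNJ5, an atrial potassium channel, had 0.575, 0.432 and 0.307 CPM in PERK KO and 49.6, 39.6 and 42.6 CPM in wild type. HCN4, the pacemaker channel, had 18.3, 16.3 and 19.4 CPM in PERK KO and 72.9, 64.5 and 66.5 CPM in wild type. At these channels the wild type libraries were higher without overlap, as for 37.0% of all genes. POPDC2, a muscle membrane protein, was lower with the potassium channels (log2 fold change -5.91 ± 0.33). GJA1, the gap junction gene that stem cells also use, was among the higher members (2.17, named after its values were seen).

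Of 20 genes of fatty acid oxidation and heart muscle metabolism 12 were lower and 3 higher (median -0.53). PPARGC1A, which drives mitochondrial biogenesis, had 0.804, 0.865 and 1.48 CPM in PERK KO and 22.4, 18.4 and 32.4 CPM in wild type. CKM, muscle creatine kinase, had 0.115, 0.162 and 0.0511 CPM in PERK KO and 14.4, 9.07 and 10.5 CPM in wild type, and MB, myoglobin, had 0.804, 0.540 and 0.307 CPM in PERK KO and 4.88, 4.48 and 6.33 CPM in wild type. The long-chain enzyme ACADVL and the electron carrier gene ETFA showed smaller decreases, of -0.93 ± 0.13 and -0.65 ± 0.14 (edgeR adjusted p = 2.36e-07 and 0.000204). The number of higher members was 1 without PERK KO replicate 1, wild type replicate 1 or wild type replicate 2, and 0 with a transcript length offset.

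The cardiac mesoderm list was lower throughout. All 14 tested members were lower in PERK KO (median -3.56), against 30.5% of all genes. Each also lay below wild type without overlap, as did 37.0% of all genes. APLNR, the apelin receptor that guides migrating mesoderm, had 2.36, 3.35 and 2.45 CPM in the PERK KO libraries, against 583, 463 and 486 CPM in the wild type libraries. PDGFRA, a surface marker of cardiac mesoderm, had 6.32, 5.78 and 6.85 CPM in PERK KO and 304, 424 and 384 CPM in wild type. BMP4, a mesoderm inducer, had 24.5, 19.6 and 21.5 CPM in PERK KO and 525, 494 and 542 CPM in wild type. TMEM88, a WNT inhibitor of the precardiac state, and SMARCD3, the heart subunit of the BAF remodeller, had log2 fold changes of -3.98 ± 0.25 and -3.99 ± 0.21 (edgeR adjusted p = 9.07e-15 and 3.66e-16). MESP1, a master factor of early cardiac mesoderm, had 0.747, 0.756 and 0.307 CPM in PERK KO and 11.8, 8.57 and 10.4 CPM in wild type. Its wild type mean was 162 ± 36.7 CPM at day 2 and 10.3 ± 1.64 CPM at day 5, while PERK KO averaged 0.835 ± 0.145 CPM at day 2 and 0.603 ± 0.257 CPM at day 5 (SD, n = 3 each).

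Primitive streak genes gave 11 lower and 3 higher members of 17 (median -2.82, or -2.52 with genes at 0 in a group set at their bound). EOMES, the T-box factor that activates MESP1, had 1.84, 2.32 and 2.10 CPM in the PERK KO libraries, against 168, 166 and 169 CPM in the wild type libraries, and NODAL, the streak ligand, had 1.38, 1.95 and 1.64 CPM in PERK KO and 212, 158 and 188 CPM in wild type. MIXL1 and WNT3 were lower as well, with log2 fold changes of -5.71 ± 0.23 and -2.82 ± 0.16 (edgeR adjusted p = 9.45e-19 and 1.87e-15). TBXT, the brachyury gene, was near 0 in both groups, at 0.230, 0.432 and 0.256 CPM in PERK KO and 0.0633, 0.111 and 0.134 CPM in wild type (edgeR adjusted p = 0.0736), and was called higher with the GC content offset (1.83, edgeR adjusted p = 0.0293). FGF4, expressed in pluripotent cells and early streak, rose, with 7.12, 5.84 and 8.43 CPM in PERK KO and 0, 0.0553 and 0.134 CPM in wild type. At day 1 streak genes were expressed in both genotypes, at lower means in PERK KO. Those means were 287.5 CPM in PERK KO and 1041 CPM in wild type for TBXT, and 321 and 1475 CPM for MIXL1. For EOMES they were 116 CPM in PERK KO and 157 CPM in wild type, and for NODAL 203 and 380.5 CPM. These day 1 levels are a description, with no test.

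Paraxial mesoderm genes had low levels in both genotypes, with 6 lower and 1 higher of 10 (median -1.05). UNCX, a somite factor, had no count in PERK KO and 4.50, 4.26 and 3.75 CPM in wild type (at least 76.2-fold lower). DLL3, a NOTCH ligand of the presomitic mesoderm, had 3.04, 3.03 and 3.22 CPM in PERK KO and 41.3, 32.5 and 35.3 CPM in wild type. The member that rose was LFNG, a NOTCH-modifying glycosyltransferase also used in neural tissue, with 38.3, 42.6 and 35.4 CPM in PERK KO and 11.1, 14.8 and 12.6 CPM in wild type. The 3 paraxial markers summed to 4.02 to 4.70 CPM in PERK KO and 9.07 to 11.5 CPM in wild type.

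The extracellular matrix was a further group with large losses. Of 17 fibrillar matrix genes 15 were lower and none higher (median -3.27). FN1, fibronectin, had 87.7, 127 and 101 CPM in the PERK KO libraries, against 5837, 6211 and 5217 CPM in the wild type libraries. COL3A1, a collagen of mesenchyme, had 0.230, 0.324 and 0.256 CPM in PERK KO and 174, 110.4 and 188 CPM in wild type. COL5A1, which nucleates collagen fibrils, had 32.2, 33.2 and 31.1 CPM in PERK KO and 1438, 1281 and 1048 CPM in wild type. FN1, COL3A1 and COL5A1 were each higher in all wild type libraries, as were 37.0% of all genes. COL1A1 fell less steeply, with 189.8, 211 and 224 CPM in PERK KO and 3439, 2799 and 2790.0 CPM in wild type (log2 fold change -3.85 ± 0.23, edgeR adjusted p = 4.56e-15).

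Of 14 basement membrane genes 9 were lower (median -0.90), among them NID2, nidogen, with 8.56, 8.48 and 8.89 CPM in PERK KO and 751, 736 and 749 CPM in wild type. LAMA1 and LAMC1, chains of the embryonic laminin, fell, with log2 fold changes of -2.45 ± 0.20 and -1.63 ± 0.20 (edgeR adjusted p = 8.32e-12 and 2.02e-08). In the set of 17 epithelial and mesenchymal genes, 8 were higher and 9 lower. VIM, the mesenchymal intermediate filament, had 168, 171 and 181 CPM in the PERK KO libraries, against 7613, 6755 and 7571 CPM in the wild type libraries. CDH1, E-cadherin, had 510.5, 504 and 523 CPM in PERK KO and 29.1, 36.3 and 33.8 CPM in wild type. EPCAM had 164, 149 and 166 CPM in PERK KO and 16.9, 28.2 and 27.5 CPM in wild type, and the epithelial splicing factor ESRP1 had 174, 171 and 194 CPM in PERK KO and 10.1, 16.8 and 12.9 CPM in wild type. Epithelial genes were high in the libraries where VIM was low. The repressors of E-cadherin moved with VIM: SNAI2 had 0.172, 0.486 and 0.307 CPM in PERK KO and 22.9, 30.3 and 28.1 CPM in wild type, and TWIST1, ZEB1 and ZEB2, named after their values were seen, were lower, with log2 fold changes of -7.05 ± 0.42, -3.85 ± 0.64 and -4.66 ± 0.40. All 8 epithelial members that rose and all 9 members that fell separated the genotypes without overlap, as did 72.7% of all genes.

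Markers of other derivatives were mostly low. Of 18 endoderm genes 12 were lower and 1 higher (median -2.07), with the 6 endoderm markers at 7.93 to 12.9 CPM in PERK KO and 61.5 to 74.3 CPM in wild type. SOX17, an endoderm specifier, had 3.73, 5.40 and 3.37 CPM in PERK KO and 21.8, 28.4 and 22.5 CPM in wild type. FOXA2, its partner in definitive endoderm, had 1.26, 2.54 and 1.53 CPM in PERK KO and 8.23, 13.8 and 10.1 CPM in wild type. HNF4A, a liver factor, was lower, with a log2 fold change of -3.67 ± 0.31 (edgeR adjusted p = 3.63e-11).

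Endothelial genes gave 7 lower and 5 higher members of 18, beside 30.5% lower and 28.6% higher of all genes. CDH5, the defining junction gene of endothelium, was under 1 CPM in every library, with 0.115, 0 and 0.0511 CPM in PERK KO and 0.570, 0.774 and 0.981 CPM in wild type. PECAM1 did not pass (edgeR adjusted p = 0.0506), although DESeq2 called it lower (adjusted p = 0.0401). TEK, the angiopoietin receptor, rose, with 33.5, 31.6 and 37.6 CPM in PERK KO and 4.62, 5.36 and 5.75 CPM in wild type. The 4 endothelial markers, TEK among them, summed to 32.6 to 38.7 CPM in PERK KO and 6.59 to 7.72 CPM in wild type, and TEK was the only one of them at 1 CPM or more in either group. Of 6 blood genes 1 was higher, TAL1 (5.57, 5.19 and 6.69 CPM in PERK KO and 0.886, 1.11 and 0.491 CPM in wild type), and 3 lower.

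Smooth muscle genes gave 5 lower and 2 higher of 8. ACTA2, smooth muscle actin, had 0.804, 1.57 and 1.74 CPM in PERK KO and 38.0, 26.9 and 50.9 CPM in wild type. CNN1 had 8.33, 8.70 and 7.71 CPM in PERK KO and 111, 86.9 and 116 CPM in wild type, whereas TAGLN, a smooth muscle marker of early heart as well, did not pass (126, 134 and 161 CPM in PERK KO and 138, 104 and 143 CPM in wild type, edgeR adjusted p = 0.67). The epicardial list was mixed, with 3 lower, among them TCF21 (0, 0.162 and 0.0511 CPM in PERK KO and 12.2, 12.6 and 11.3 CPM in wild type), and 2 higher, BNC2 (61.7, 58.2 and 67.2 CPM in PERK KO and 0.886, 1.71 and 1.38 CPM in wild type) and the urothelial and mesothelial gene UPK3B (9.48, 9.83 and 7.77 CPM in PERK KO and 0.317, 0.387 and 0.446 CPM in wild type). WT1, the defining epicardial factor, was too low to be tested. Of 4 skeletal muscle genes tested, MYF6 and MYLPF were higher and TNNT3 was lower, all under 1 CPM. The MYLPF call was lost with the transcript length offset (log2 fold change 0.81) and without PERK KO replicate 3 or wild type replicate 1 or 2 (1.55, 1.53 and 1.31). MYH3, the fourth gene, did not pass (log2 fold change 0.55, edgeR adjusted p = 0.0522), but was called higher in 7 alternatives, with adjusted p of 0.0126 to 0.161 over those run.

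The pluripotency list lay above its wild type level. Of 20 members 18 were higher in PERK KO (90.0%, against 28.6% of all genes) and 2 lower (median 2.72). POU5F1, the core pluripotency factor, had 960.4, 916 and 960.3 CPM in the PERK KO libraries, against 71.7, 58.3 and 58.6 CPM in the wild type libraries. NANOG had 23.0, 21.0 and 25.4 CPM in PERK KO and 0.443, 0.332 and 0.714 CPM in wild type. SOX2, which pluripotent and neural cells share, had 509, 439.9 and 454 CPM in PERK KO and 3.55, 5.09 and 5.58 CPM in wild type. Log2 fold changes were 3.91 ± 0.26, 5.48 ± 0.27 and 6.61 ± 0.26 (edgeR adjusted p = 7.28e-14, 7.54e-17 and 5.09e-19).

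DNMT3B, the methyltransferase of the early epiblast, had 1176, 1077 and 1183 CPM in PERK KO and 114, 125 and 100.5 CPM in wild type. DPPA4 had 472, 455 and 470.5 CPM in PERK KO and 108, 121 and 119.5 CPM in wild type. TDGF1, the NODAL co-receptor, had 340.0, 320.3 and 344 CPM in PERK KO and 22.4, 26.5 and 28.8 CPM in wild type. Each of these was higher in all PERK KO libraries, as were 35.7% of all genes. LIN28A, an RNA-binding protein that blocks let-7, was also abundant in wild type, with 2463, 2388 and 2445 CPM in PERK KO and 880.1, 864 and 770.4 CPM in wild type (log2 fold change 1.54 ± 0.14). The 2 members that fell were NODAL-regulated ligands, named after their values were seen. LEFTY2 had 2.87, 2.49 and 3.98 CPM in PERK KO and 121, 81.7 and 120.2 CPM in wild type. GDF3 had 1.55, 0.756 and 1.07 CPM in PERK KO and 14.6, 9.62 and 13.0 CPM in wild type. LEFTY1, a near-identical neighbour of LEFTY2, was among the higher calls but under 2 CPM in every library.

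Compared with their own day 0 level, the pluripotency factors of PERK KO had diverged from each other by day 5. POU5F1 averaged 946 ± 25.4 CPM in PERK KO at day 5 and 2634 ± 1002 CPM at day 0, and NANOG 23.1 ± 2.22 CPM at day 5 and 142 ± 14.9 CPM at day 0 (SD, n = 3 each). SOX2 averaged 468 ± 36.5 CPM at day 5 and 207 ± 27.7 CPM at day 0. In wild type SOX2 averaged 4.74 ± 1.06 CPM at day 5 and 257 ± 10.3 CPM at day 0. These levels over days are given as a description, with no test.

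Forebrain and neuroectoderm genes had the highest median of the lists. Of 21 tested members 15 were higher and 5 lower (median 4.20, or 4.04 with genes at 0 in a group set at their bound). SOX1, an early neural plate factor, had 14.1, 12.9 and 15.5 CPM in PERK KO and no count in wild type (at least 266-fold higher). SIX3, which marks the rostral forebrain and eye field, had 126, 104 and 104 CPM in the PERK KO libraries, against 0.253, 0.332 and 0.0892 CPM in the wild type libraries. LHX5, a forebrain factor, had 126, 116 and 111 CPM in PERK KO and 0.0633, 0 and 0.268 CPM in wild type. FEZF1, which marks the anterior neural plate, had 156, 146 and 126 CPM in PERK KO and 0.190, 0.166 and 0.134 CPM in wild type. All were at or near 0 in every wild type library.

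ZIC1, a neural plate zinc finger factor, had 62.0, 60.7 and 58.5 CPM in PERK KO and 0, 0.277 and 0.134 CPM in wild type, and its paralogs ZIC2 and ZIC5 rose, with log2 fold changes of 4.20 ± 0.15 and 4.86 ± 0.20 (edgeR adjusted p = 3.45e-20 and 8.66e-19). OTX2, an anterior factor that wild type cells also express, had 359, 335 and 331 CPM in PERK KO and 76.5, 93.95 and 84.8 CPM in wild type. PAX6, which follows in the committed neural plate, was called higher but stayed under 1 CPM, with 0.862, 0.702 and 0.9197 CPM in PERK KO and 0, 0.166 and 0.0446 CPM in wild type. The list was not uniform. Its lower members included, named after their values were seen, LHX2 (0.115, 0.0540 and 0.153 CPM in PERK KO and 4.24, 3.04 and 3.52 CPM in wild type), OTX1 (-2.39), FABP7 (-0.95) and NES (-0.68).

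Midbrain and hindbrain genes gave 7 higher and 3 lower of 15 (median 1.31). IRX2, a factor of the neural plate and of early ectoderm, had 197, 158 and 202 CPM in PERK KO and 4.12, 6.25 and 5.84 CPM in wild type. OLIG3, a dorsal neural tube factor, had 24.9, 20.9 and 26.6 CPM in PERK KO and 0.127, 0 and 0 CPM in wild type, higher by 680.4-fold (95% counting interval 188 to 5624). LMX1A, a roof plate and midbrain factor, had 6.95, 8.38 and 6.28 CPM in PERK KO and 0.127, 0 and 0 CPM in wild type. IRX3, a factor of the caudal neural plate, was lower, with a log2 fold change of -1.99 ± 0.22. EN1, EN2 and WNT1, which define the midbrain-hindbrain boundary, were too low to be tested.

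Neuronal genes gave 7 higher and 4 lower of 14. MAP2, a dendritic microtubule protein, had 100.3, 87.5 and 103 CPM in the PERK KO libraries, against 0.3799, 0.608 and 0.491 CPM in the wild type libraries. TUBB3, neuronal tubulin, had 147, 164 and 156 CPM in PERK KO and 17.2, 13.6 and 14.2 CPM in wild type. ELAVL2, a neuronal RNA-binding protein, had 5.46, 4.05 and 6.13 CPM in PERK KO and 0.506, 0.995 and 1.61 CPM in wild type. All PERK KO libraries were above all wild type libraries at these genes, as for 35.7% of all genes. TUBB3 and ELAVL2 were already expressed at day 0, at higher means than at day 5 in both genotypes. Day 0 means were 187 CPM in PERK KO and 240 CPM in wild type for TUBB3, and 19.3 and 18.8 CPM for ELAVL2. MAP2 differed from them, with 3.88 CPM in PERK KO and 3.99 CPM in wild type at day 0. These day 0 levels are a description, with no test. The proneural genes NEUROG1 and NEUROD1 were too low to be tested, and DCX, a marker of migrating neurons, did not pass (3.85, 3.24 and 3.32 CPM in PERK KO and 1.84, 2.65 and 2.01 CPM in wild type, edgeR adjusted p = 0.106; named after its values were seen). ATOH1, a proneural factor of the hindbrain, was lower, with 0.115, 0.216 and 0.0511 CPM in PERK KO and 11.02, 7.63 and 9.10 CPM in wild type.

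Surface ectoderm and neural crest genes did not move as a block, with 9 higher and 7 lower of 21. TFAP2C and GRHL2, epithelial factors of early ectoderm, rose. TFAP2C had 26.5, 21.8 and 22.1 CPM in PERK KO and 1.27, 1.55 and 1.52 CPM in wild type. GRHL2 had 42.7, 45.0 and 43.1 CPM in PERK KO and 1.90, 3.32 and 2.63 CPM in wild type. MSX1 and MSX2, BMP-responsive factors, fell. MSX1 had 0.230, 0.432 and 0.307 CPM in PERK KO and 56.7, 46.7 and 57.0 CPM in wild type. MSX2 had 1.03, 1.24 and 1.28 CPM in PERK KO and 82.3, 81.1 and 81.0 CPM in wild type. KRT8, KRT18 and KRT19, keratins that early mesoderm also carries, were lower, with log2 fold changes of -2.97 ± 0.24, -2.13 ± 0.26 and -3.34 ± 0.30 (named after their values were seen). SOX10, the neural crest factor, rose within a low range, with 3.68, 3.62 and 3.37 CPM in PERK KO and 2.34, 2.32 and 1.56 CPM in wild type, a call lost without wild type replicate 3 (log2 fold change 0.61, edgeR adjusted p = 0.106, the highest of its alternatives; the lowest was 0.000235). The 4 crest markers summed to 14.3 to 17.8 CPM in PERK KO and 25.5 to 33.0 CPM in wild type.

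**Figure D2:**
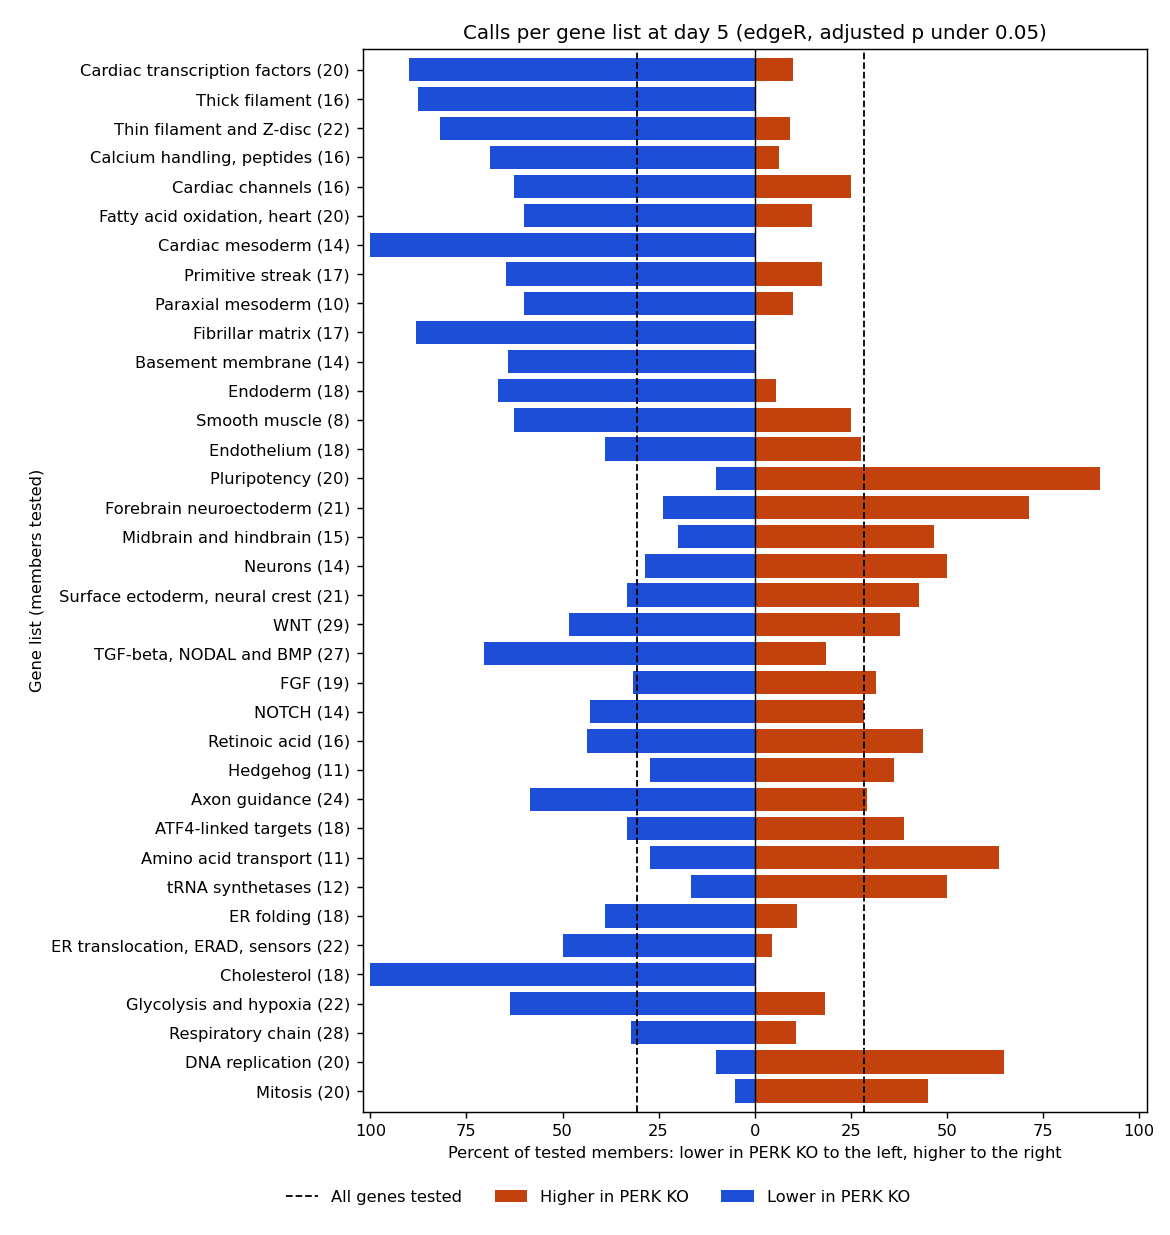
Percent of the tested members of 36 gene lists that edgeR called lower (to the left) or higher (to the right) in PERK KO at day 5, with dashed lines at the shares of all 19772 genes (30.5% lower, 28.6% higher). Cardiac mesoderm and cholesterol genes reach 100% lower, and pluripotency genes 90.0% higher.

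Genes of the TGF-beta superfamily were mostly lower. Of 27 genes of the TGF-beta, NODAL and BMP pathways 19 were lower and 5 higher (median -2.45). TGFB1 had 3.73, 3.62 and 4.09 CPM in PERK KO and 244, 190.4 and 188 CPM in wild type. BMP2 had 15.3, 16.5 and 14.7 CPM in PERK KO and 153, 163 and 195 CPM in wild type. CHRD, a BMP antagonist, had 1.03, 1.62 and 1.38 CPM in PERK KO and 34.1, 29.9 and 29.2 CPM in wild type. All wild type libraries were above all PERK KO libraries at these ligands and at CHRD, as for 37.0% of all genes. SMAD6, a feedback inhibitor that BMP signalling turns on, had 26.0, 24.6 and 23.8 CPM in PERK KO and 699, 656 and 635 CPM in wild type. BAMBI, a decoy receptor with the same regulation, had 7.70, 6.97 and 9.09 CPM in PERK KO and 363, 328 and 428 CPM in wild type. ID1, a direct BMP target, did not pass (327, 334 and 339 CPM in PERK KO and 341, 323 and 350.3 CPM in wild type, edgeR adjusted p = 0.956), while ID2 and ID3, named after their values were seen, fell, with log2 fold changes of -1.33 ± 0.15 and -2.36 ± 0.28.

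WNT pathway genes gave 14 lower and 11 higher of 29 (median -0.52). The secreted antagonists SFRP1 and SFRP2 rose. SFRP1 had 1288, 1232 and 1244 CPM in PERK KO and 101, 138 and 108 CPM in wild type. SFRP2 had 165, 159.8 and 159.6 CPM in PERK KO and 6.96, 6.86 and 5.35 CPM in wild type. LGR5, a receptor and WNT target, had 0.632, 0.756 and 0.613 CPM in PERK KO and 96.5, 104 and 102.5 CPM in wild type, and the nuclear effector LEF1 had 2.47, 2.81 and 3.01 CPM in PERK KO and 101, 111 and 109 CPM in wild type. The secreted antagonists differed in the opposite direction to LGR5 and LEF1. WNT5B, a ligand of migrating mesoderm, had 0.230, 1.24 and 0.511 CPM in PERK KO and 98.5, 64.4 and 67.7 CPM in wild type. AXIN2, the usual feedback readout, was higher in PERK KO, with 37.5, 37.7 and 35.97 CPM in PERK KO and 17.0, 15.9 and 16.3 CPM in wild type (log2 fold change 1.18 ± 0.13, edgeR adjusted p = 6.94e-09). LGR5, LEF1 and AXIN2 are all known WNT targets, and they did not share a direction at this day.

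FGF genes gave 6 higher and 6 lower of 19 (median 0.17), near the shares of all genes (28.6% higher and 30.5% lower). FGF19, a ligand of the early neural plate, had 9.54, 8.32 and 9.04 CPM in PERK KO and 0, 0.0553 and 0 CPM in wild type, higher by 504-fold (95% counting interval 90.1 to 19960.0). FGF10, expressed in the second heart field, had 1.32, 0.865 and 0.613 CPM in PERK KO and 60.5, 70.9 and 71.3 CPM in wild type. Among the feedback genes, DUSP6, an ERK phosphatase, had 5.00, 3.89 and 5.01 CPM in PERK KO and 231, 204 and 281 CPM in wild type. SPRY2, a Sprouty inhibitor, had 17.0, 17.3 and 17.7 CPM in PERK KO and 97.1, 87.3 and 99.2 CPM in wild type (log2 fold changes -5.69 ± 0.19 and -2.45 ± 0.14, edgeR adjusted p = 8.53e-21 and 3.08e-15). FGF2 and its receptors FGFR1 and FGFR2, named after their values were seen, were higher, with log2 fold changes of 4.45 ± 0.35, 1.28 ± 0.14 and 1.39 ± 0.12.

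NOTCH genes gave 4 higher and 6 lower of 14, beside 28.6% higher and 30.5% lower of all genes. JAG1, a ligand of mesoderm and endocardium, had 48.0, 50.9 and 55.5 CPM in PERK KO and 352, 374 and 387 CPM in wild type. NRARP, a NOTCH feedback gene, had 26.0, 22.3 and 25.1 CPM in PERK KO and 5.83, 7.13 and 6.601 CPM in wild type. HEY1 had 0.230, 1.46 and 0.971 CPM in PERK KO and 23.4, 22.9 and 24.8 CPM in wild type. With the GC content offset 7 NOTCH genes were higher.

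Retinoic acid genes gave 7 higher and 7 lower of 16. CYP26A1, which degrades retinoic acid, had 224, 224 and 209.9 CPM in the PERK KO libraries, against 14.5, 16.9 and 16.01 CPM in the wild type libraries, and DHRS3, which clears retinaldehyde, had 26.7, 27.1 and 24.4 CPM in PERK KO and 2.47, 1.38 and 1.52 CPM in wild type. CRABP1, an intracellular binding protein, was higher, with a log2 fold change of 3.27 ± 0.24, and STRA6, the retinol importer, was lower, with a log2 fold change of -2.89 ± 0.15 (edgeR adjusted p = 8.39e-13 and 1.27e-16). ALDH1A2, the mesodermal synthesis enzyme, was under 1 CPM in every library. Of 11 hedgehog genes 4 were higher and 3 lower, beside 28.6% higher and 30.5% lower of all genes. GLI1, the target gene of the pathway, had 33.9, 31.9 and 31.3 CPM in PERK KO and 3.04, 3.43 and 3.26 CPM in wild type. BOC, a co-receptor, had 17.5, 18.8 and 16.9 CPM in PERK KO and 149, 141 and 118 CPM in wild type.

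Of 22 HOX genes 9 were tested and 7 were lower (median -6.53, or -4.33 with genes at 0 set at their bound). HOXB2, a HOX gene of the hindbrain and heart field, had 0.747, 0.648 and 0.715 CPM in PERK KO and 73.0, 60.8 and 62.9 CPM in wild type. Its neighbour HOXB3 had 0.287, 0.216 and 0.307 CPM in PERK KO and 57.9, 54.5 and 50.0 CPM in wild type. HOXB4, HOXB5 and HOXB6 had no count in PERK KO and were at least 202-fold, 78.8-fold and 20.0-fold lower. Every HOX gene tested stayed under 1 CPM in PERK KO. With the 6 day 5 libraries fitted alone, 4 HOX genes were called lower.

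Axon guidance genes gave 14 lower and 7 higher of 24 (median -0.82). SLIT3, a ligand also made by heart mesoderm, had 1.78, 2.05 and 2.20 CPM in PERK KO and 457, 371 and 393 CPM in wild type. UNC5C, a netrin receptor, had 1.09, 0.432 and 0.664 CPM in PERK KO and 77.7, 89.7 and 80.8 CPM in wild type. NTN1, the netrin ligand of the neural midline, rose, with 38.1, 37.6 and 33.8 CPM in PERK KO and 2.22, 1.66 and 2.41 CPM in wild type, as did EFNA5, an ephrin, with 37.6, 34.9 and 39.4 CPM in PERK KO and 2.09, 3.71 and 3.57 CPM in wild type. The ligands SLIT3 and NTN1 differed in opposite directions. NRP1, a semaphorin and VEGF co-receptor, had 3.10, 3.73 and 3.73 CPM in PERK KO and 177, 193 and 209.7 CPM in wild type. EPHA4, an ephrin receptor, did not pass, with 138, 113 and 109.5 CPM in PERK KO and 81.4, 113 and 84.2 CPM in wild type (edgeR adjusted p = 0.0785). It was called higher in 4 alternatives, those with the 6 day 5 libraries alone, with or without the block, that without wild type replicate 2 and that with replicate 2 of PERK KO day 0 and replicate 3 of wild type day 2 left out (adjusted p of 0.000956 to 0.289 over those run).

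Genes around PERK itself moved unevenly. Of 7 genes for eIF2alpha, its kinases and its phosphatase subunits, 3 were higher and 2 lower. The sister kinases EIF2AK2, which senses double-stranded RNA, and EIF2AK4, which senses amino acid shortage, rose. EIF2AK2 had 99.2, 87.9 and 93.5 CPM in PERK KO and 24.9, 33.3 and 30.8 CPM in wild type. EIF2AK4 had 183, 165 and 174 CPM in PERK KO and 67.0, 86.3 and 75.6 CPM in wild type. The heme-sensing kinase EIF2AK1 did not pass (-0.03, edgeR adjusted p = 0.857). PPP1R15A, the inducible subunit that directs dephosphorylation of eIF2alpha, had 31.4, 29.02 and 27.9 CPM in the PERK KO libraries, against 138, 122 and 127 CPM in the wild type libraries. The log2 fold change of PPP1R15A was -2.13 ± 0.17, without overlap (edgeR adjusted p = 3.24e-12), and the constitutive subunit PPP1R15B was lower, with a log2 fold change of -0.54 ± 0.13. EIF2S1, eIF2alpha, was higher, with a log2 fold change of 0.87 ± 0.19, a call lost with the GC content offset (0.10, edgeR adjusted p = 0.627).

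Of 8 stress transcription factors downstream of PERK, 1 was higher and 2 lower. ATF4 had 282, 297 and 274 CPM in the PERK KO libraries, against 386, 354 and 385 CPM in the wild type libraries and did not pass (log2 fold change -0.40 ± 0.18, edgeR adjusted p = 0.0572), though all PERK KO libraries lay below all wild type libraries and DESeq2 called it. EdgeR also called ATF4 lower with the 6 day 5 libraries alone, with or without the replicate block. The same held with replicate 2 of PERK KO day 0 and replicate 3 of wild type day 2 left out. Over the alternatives run, the adjusted p of ATF4 was 0.00133 to 0.572. DDIT3, the CHOP gene, was at 2.99, 2.16 and 2.56 CPM in PERK KO and 4.56, 3.37 and 3.17 CPM in wild type (edgeR adjusted p = 0.107). ATF3, a stress-inducible factor, rose, with 11.7, 9.94 and 11.3 CPM in PERK KO and 5.95, 4.64 and 5.04 CPM in wild type (log2 fold change 1.07 ± 0.19, edgeR adjusted p = 1.14e-05). The lower calls, CEBPB (-0.65) and TRIB3 (-0.50), were both lost with the GC content offset (-0.18 and -0.08), and no member was called lower without PERK KO replicate 2 or without wild type replicate 3.

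Of the 18 genes known as ATF4-linked targets 7 were higher and 6 lower (median 0.05), beside 28.6% higher and 30.5% lower of all genes. The list was split between the directions much as all genes were. ASNS, asparagine synthetase, had 59.8, 52.6 and 59.5 CPM in PERK KO and 23.3, 21.1 and 27.2 CPM in wild type. CHAC1, a glutathione-degrading enzyme, had 12.6, 11.7 and 12.1 CPM in PERK KO and 7.15, 3.93 and 4.59 CPM in wild type. SLC7A11, the cystine importer, had 20.6, 23.3 and 20.8 CPM in the PERK KO libraries, against 1.27, 1.77 and 0.937 CPM in the wild type libraries (log2 fold change 4.04 ± 0.43, edgeR adjusted p = 1.66e-09). None of these overlapped between the genotypes, as was so for 72.7% of all genes. VLDLR, a lipoprotein receptor, was lower, with 26.0, 23.1 and 29.3 CPM in PERK KO and 134, 138 and 148 CPM in wild type, as were SESN2 (-0.76) and JDP2 (-1.74). The core of the amino acid response element, TGATGNAA on both strands, stood in 3.14% of all promoters and in 4 of 32 entries for the amino acid lists: ASNS and CHAC1, which rose, and FGF21 and MTHFD1L, which were not called.

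Of 11 serine and folate enzymes 4 were higher and 1 lower. PSAT1, of serine synthesis, had 185, 179 and 181 CPM in PERK KO and 57.1, 61.0 and 57.8 CPM in wild type, and the folate enzymes MTHFD1 and MTHFD2 rose, with log2 fold changes of 0.87 ± 0.11 and 0.81 ± 0.14. PHGDH and SHMT2 did not pass and were called higher with the GC content offset (0.46 and 0.42), which raised the list to 7 higher. Of 11 amino acid transporters 7 were higher and 3 lower (median 0.56). SLC38A1, a glutamine importer, had 395, 388 and 436 CPM in PERK KO and 142, 163 and 171 CPM in wild type. SLC7A3, an arginine transporter, had 115, 122 and 124 CPM in PERK KO and 69.3, 61.0 and 63.8 CPM in wild type. SLC1A4, a neutral amino acid transporter, fell, with 0.632, 0.865 and 0.971 CPM in PERK KO and 6.33, 6.64 and 5.66 CPM in wild type. With the GC content offset 1 transporter was lower. The transporters moved in both directions. Of 12 tRNA synthetases 6 were higher and 2 lower (median 0.48), among them TARS, which charges threonine tRNA, with 249, 227 and 258 CPM in PERK KO and 42.5, 53.8 and 61.7 CPM in wild type. EPRS, which charges glutamate and proline tRNAs, had 174, 159.8 and 184 CPM in PERK KO and 42.4, 43.6 and 51.9 CPM in wild type.

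Of 18 ER folding genes 7 were lower and 2 higher (median -0.39), a lower share not far from the 30.5% of all genes, and 12 were lower with the GC content offset. HSPA5, the master ER chaperone BiP, had 296, 292 and 305 CPM in the PERK KO libraries, against 432, 477 and 512 CPM in the wild type libraries, and CALR, calreticulin, had 488, 491 and 494 CPM in PERK KO and 888, 804 and 856 CPM in wild type. P4HB and PDIA4, disulfide isomerases, were lower, with log2 fold changes of -0.78 ± 0.16 and -0.66 ± 0.13 (edgeR adjusted p = 9.45e-05 and 6.96e-05). HSP90B1, the ER member of the HSP90 family, rose, unlike HSPA5, with 748, 640.5 and 762 CPM in PERK KO and 294, 337 and 379 CPM in wild type (log2 fold change 1.09 ± 0.25, edgeR adjusted p = 0.0005). CANX, the membrane partner of calreticulin, also rose (log2 fold change 0.62 ± 0.21, named after its values were seen).

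HSP90B1 and HSPA5 share a promoter motif and moved in opposite directions. The ER stress response element, CCAAT and CCACG with 9 bases between them on either strand, stood in 0.074% of 35116 promoters and in 6 of 17 ER folding entries: HSPA5, CALR and CRELD2, which were lower, HSP90B1 and CANX, which were higher, and ERO1B, which was not called. CRELD2, named after its values were seen, had 16.2, 16.4 and 15.5 CPM in PERK KO and 28.6, 24.7 and 28.6 CPM in wild type (log2 fold change -0.77 ± 0.21). The stretches before the start sites that hold the element are shown for genes called in each direction, in RefSeq GRCh38.p14, with the element in capitals. HSPA5 is at chr9:125241344-125241593 (minus strand), CALR at chr19:12938359-12938606 (plus strand), CRELD2 at chr22:49918459-49918633 (plus strand) and HSP90B1 at chr12:103930212-103930333 (plus strand).
HSPA5: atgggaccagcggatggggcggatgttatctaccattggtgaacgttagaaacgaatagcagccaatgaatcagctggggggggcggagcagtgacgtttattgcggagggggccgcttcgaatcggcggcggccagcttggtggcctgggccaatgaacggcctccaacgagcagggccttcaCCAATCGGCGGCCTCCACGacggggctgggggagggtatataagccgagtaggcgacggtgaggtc
CALR: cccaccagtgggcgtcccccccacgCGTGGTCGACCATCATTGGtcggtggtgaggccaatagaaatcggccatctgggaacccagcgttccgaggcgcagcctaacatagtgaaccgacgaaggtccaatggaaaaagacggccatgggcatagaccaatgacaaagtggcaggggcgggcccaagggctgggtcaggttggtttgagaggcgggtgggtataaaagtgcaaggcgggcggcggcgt
CRELD2: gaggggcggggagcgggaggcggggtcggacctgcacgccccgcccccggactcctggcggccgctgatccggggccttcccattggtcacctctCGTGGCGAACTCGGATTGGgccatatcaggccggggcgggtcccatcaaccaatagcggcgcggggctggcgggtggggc
HSP90B1: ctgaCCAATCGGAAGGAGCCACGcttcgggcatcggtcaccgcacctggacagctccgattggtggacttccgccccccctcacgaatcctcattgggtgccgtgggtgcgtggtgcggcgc
In these stretches the element reads forward before HSPA5 and HSP90B1 and in reverse before CALR and CRELD2. The HSP90B1 entry has 2 matches in all, and the second, in reverse, runs past the end of the stretch shown. A match is a description of these letters and not evidence of binding.

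Of 22 genes for ER sensors, translocation and degradation 11 were lower and 1 higher (median -0.50). The sensor genes ERN1, which encodes IRE1, and ATF6 were both lower (edgeR adjusted p = 1.46e-06 and 1.52e-06), ERN1 with a log2 fold change of -1.04 ± 0.16. XBP1, whose RNA IRE1 splices, was lower, with a log2 fold change of -0.52 ± 0.19. HERPUD1, an ER stress-inducible degradation factor, had 8.04, 10.3 and 8.89 CPM in the PERK KO libraries, against 30.5, 23.8 and 30.9 CPM in the wild type libraries. OS9, a lectin of the same pathway, had 108, 107 and 107 CPM in PERK KO and 232, 214 and 219 CPM in wild type. The exception was SEC24D, a coat protein of ER export vesicles, which was higher, with a log2 fold change of 0.48 ± 0.14 (named after its values were seen).

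Sterol genes moved together. All 18 cholesterol genes were lower in PERK KO (median -1.23), against 30.5% of all genes. Each also lay below wild type without overlap of libraries, as did 37.0% of all genes. SREBF2, the transcription factor that drives the pathway, had 227, 223 and 220.1 CPM in the PERK KO libraries, against 787, 663 and 608 CPM in the wild type libraries. INSIG1, the sterol sensor partner, had 28.7, 25.6 and 25.3 CPM in PERK KO and 92.8, 105 and 106 CPM in wild type. Both the regulator and the sensor partner were lower without overlap. MVK, an early enzyme, had 10.7, 12.2 and 9.96 CPM in PERK KO and 86.5, 69.7 and 70.0 CPM in wild type. SQLE, squalene epoxidase, had 71.7, 61.4 and 69.4 CPM in PERK KO and 139, 152 and 164 CPM in wild type (log2 fold change -1.17 ± 0.11, edgeR adjusted p = 7.59e-11). The same direction held under every alternative run for the named members.

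The sterol response element as searched, TCACNCCAC on both strands, stood in 0.883% of all promoters and in 1 of 13 cholesterol entries, that of SREBF2. The CCAAT box, the motif of NF-Y, stood in 32% of all promoters and in 11 of the 13. Stretches with it are shown for the synthesis enzymes HMGCS1 (log2 fold change -1.11 ± 0.21) and MSMO1 (-1.67 ± 0.18), named after their values were seen, with each box in capitals in either orientation. HMGCS1 lies at chr5:43313513-43313662 (minus strand) and MSMO1 at chr4:165327419-165327622 (plus strand).
HMGCS1: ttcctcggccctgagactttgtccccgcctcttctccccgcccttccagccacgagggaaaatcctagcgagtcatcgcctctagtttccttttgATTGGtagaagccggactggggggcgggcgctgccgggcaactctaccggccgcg
MSMO1: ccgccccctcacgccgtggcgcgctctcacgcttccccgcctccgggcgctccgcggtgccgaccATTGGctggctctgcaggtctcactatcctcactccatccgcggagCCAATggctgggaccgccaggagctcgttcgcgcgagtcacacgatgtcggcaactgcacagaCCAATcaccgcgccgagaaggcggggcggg
With 32% of all promoters holding this box, its presence describes these promoters without setting them apart.

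Glycolysis and hypoxia genes were lower in 14 of 22 cases and higher in 4 (median -0.93). PDK1, a pyruvate dehydrogenase kinase, had 48.2, 43.1 and 50.7 CPM in the PERK KO libraries, against 438, 528 and 636 CPM in the wild type libraries. The lactate exporter SLC16A3 had 11.8, 11.6 and 9.96 CPM in PERK KO and 254, 204 and 206 CPM in wild type. The glucose importer SLC2A3 had 255, 252 and 265 CPM in PERK KO and 1359, 1526 and 1516 CPM in wild type, and the rate-limiting isoform PFKP had 68.7, 77.8 and 70.5 CPM in PERK KO and 486, 410.2 and 422 CPM in wild type. VEGFA, the hypoxia-induced growth factor, was lower, with a log2 fold change of -2.25 ± 0.13 (edgeR adjusted p = 9.13e-16). The 4 members that rose, named after their values were seen, were HK2 (1.40), ENO2 (1.46), ADM (1.07) and EGLN3 (2.42).

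Of 28 nuclear respiratory chain genes 9 were lower and 3 higher (median -0.33), near the shares of all genes for the lower calls. ATP5F1A, an ATP synthase subunit, had 547, 582 and 579 CPM in PERK KO and 964, 866 and 987 CPM in wild type. That count of 9 was unstable, at 3 without PERK KO replicate 1 or without wild type replicate 1 and at 16 with the 6 day 5 libraries alone. Of 13 mitochondrial genome transcripts 3 were lower and none higher, which became 0 lower without wild type replicate 1, 1 without PERK KO replicate 1 or 2, and 6 with the GC content offset.

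**Figure D3:**
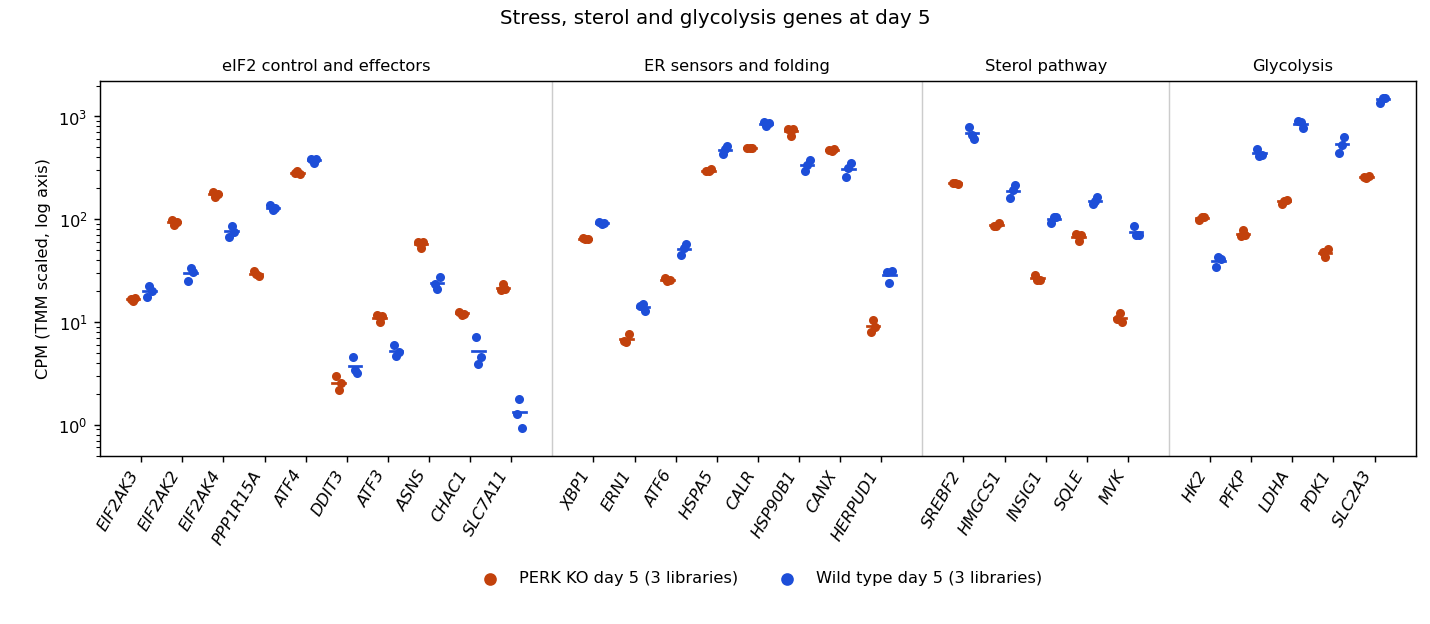
CPM on a log axis for 28 genes of eIF2 control, ER folding, sterol and glucose metabolism in each day 5 library, with PERK KO to the left of wild type and a bar at each group mean. HSPA5 and all 5 sterol genes sit lower in every PERK KO library, while HSP90B1, CANX and SLC7A11 sit higher.

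Of 20 DNA replication genes 13 were higher and 2 lower (median 0.45), by small margins. MCM4, of the replicative helicase, had 494, 513 and 487 CPM in PERK KO and 224, 265 and 232 CPM in wild type, and the licensing factors CDC6 and CDT1 were higher, with log2 fold changes of 1.42 ± 0.12 and 1.08 ± 0.18 (edgeR adjusted p = 1.09e-11 and 7.73e-06). Of 20 mitosis genes 9 were higher and 1 lower (median 0.55). BUB1, a spindle checkpoint kinase, had 251, 229 and 250.4 CPM in PERK KO and 59.9, 81.0 and 79.5 CPM in wild type. BUB1B, its checkpoint partner, had 181, 166 and 184 CPM in PERK KO and 52.1, 67.7 and 62.1 CPM in wild type. CENPF, a kinetochore protein, had 382, 256 and 394 CPM in PERK KO and 74.5, 67.5 and 43.8 CPM in wild type. All PERK KO libraries were above all wild type libraries at these checkpoint and kinetochore genes, as for 35.7% of all genes. MKI67, the proliferation marker, had 308, 269 and 323 CPM in PERK KO and 173, 198 and 132 CPM in wild type and did not pass (edgeR adjusted p = 0.0865), although it was called with the 6 day 5 libraries alone.

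The D cyclins of G1 moved in opposite directions. CCND1, cyclin D1, had 331, 344 and 340.3 CPM in the PERK KO libraries, against 28.7, 30.1 and 30.4 CPM in the wild type libraries, and CCND2, cyclin D2, had 42.3, 45.5 and 43.2 CPM in PERK KO and 285, 304 and 291 CPM in wild type (log2 fold changes 3.51 ± 0.13 and -2.75 ± 0.14, edgeR adjusted p = 7.66e-20 and 1.16e-16). MYC and MYCN were both higher, with log2 fold changes of 1.83 ± 0.18 and 1.57 ± 0.14. CDKN2B, a CDK4 inhibitor induced by TGF-beta, had 0.115, 0.0540 and 0.0511 CPM in PERK KO and 5.19, 3.59 and 7.18 CPM in wild type. In all, 8 of 15 members were lower and 3 higher.

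Of 20 p53 and apoptosis genes 9 were higher and 4 lower. PMAIP1, the pro-apoptotic NOXA gene, had 103, 90.9 and 101 CPM in the PERK KO libraries, against 2.98, 3.54 and 3.88 CPM in the wild type libraries (log2 fold change 4.81 ± 0.25, edgeR adjusted p = 1.14e-16), and AEN, a p53-induced nuclease, had 115, 132 and 130.2 CPM in PERK KO and 65.0, 54.5 and 49.9 CPM in wild type. BTG2 and TP53INP1, further p53 targets, were lower, with log2 fold changes of -2.79 ± 0.17 and -1.78 ± 0.20. The p53 targets named here therefore moved both ways. Of 10 immediate early genes 1 was higher and 3 lower, beside 28.6% higher and 30.5% lower of all genes. The counts became 1 lower without PERK KO replicate 3 or wild type replicate 1, and 3 higher and 1 lower with the GC content offset. JUNB, an AP-1 subunit, had 2.59, 2.59 and 1.69 CPM in PERK KO and 12.6, 10.6 and 12.8 CPM in wild type.

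Of 12 imprinted genes 7 were lower and 4 higher (median -1.55). IGF2, the fetal growth factor, had 3.85, 4.27 and 4.39 CPM in the PERK KO libraries, against 1056, 951 and 916 CPM in the wild type libraries (log2 fold change -7.87 ± 0.28, edgeR adjusted p = 4.59e-20). H19, its oppositely imprinted neighbour, was lower too, with 0.460, 0.486 and 0.460 CPM in PERK KO and 9.05, 5.31 and 7.40 CPM in wild type. DLK1, PLAGL1 and NNAT, all expressed from the paternal copy, fell, with log2 fold changes of -2.36 ± 0.23, -2.74 ± 0.22 and -2.12 ± 0.23. Allele of origin cannot be read from these counts.

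The genotype difference at day 5 was then set against that at day 3, by an interaction test in the same edgeR fit. It differed for 4073 genes (20.6%), more positive at day 5 for 1965 (9.94%) and more negative for 2108 (10.7%). This count was 2473 without wild type day 3 replicate 1. GREB1L, a retinoic acid-linked developmental gene, had opposite signs on the 2 days. At day 5 it averaged 121 ± 10.4 CPM in PERK KO and 42.2 ± 7.34 CPM in wild type, and at day 3 3.28 ± 0.604 CPM in PERK KO and 127 ± 21.0 CPM in wild type (SD, n = 3 each; difference 6.80 ± 0.37, edgeR adjusted p = 3.66e-14). EPHA4 averaged 120.3 ± 15.8 CPM in PERK KO and 92.8 ± 17.4 CPM in wild type at day 5, and 9.21 ± 2.47 CPM in PERK KO and 249 ± 16.7 CPM in wild type at day 3 (difference 5.13 ± 0.28, edgeR adjusted p = 3.66e-14). RHOU, a WNT-responsive GTPase, shifted by 3.48 ± 0.20 (edgeR adjusted p = 2.4e-13).

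TXNIP, an inhibitor of glucose uptake, averaged 15.7 ± 1.16 CPM in PERK KO and 319 ± 20.1 CPM in wild type at day 5, and 92.7 ± 7.79 CPM in PERK KO and 126 ± 20.4 CPM in wild type at day 3. The genotype difference was more negative at day 5 by -3.91 ± 0.24 on the log2 scale (edgeR adjusted p = 8.72e-13). SCUBE1, a secreted glycoprotein, STAC, a calcium channel adaptor, and CCDC80, a matrix protein, were likewise more negative at day 5, by -4.03 ± 0.25, -3.74 ± 0.23 and -3.84 (edgeR adjusted p = 7.43e-13, 7.43e-13 and 1.2e-12).

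Gene lists also differed between day 3 and day 5. Glycolysis and hypoxia genes were more negative at day 5 in 18 of 22 cases and more positive in none, and their median difference in log2 CPM was -0.93 at day 5 and 0.25 at day 3. Thin filament genes were more negative in 10 of 22 (median -3.40 at day 5 and -0.49 at day 3), cardiac channels in 7 of 16 and cholesterol genes in 8 of 18. Forebrain genes were more positive in 9 of 21 (median 3.998 at day 5 and 0.74 at day 3), and surface ectoderm and crest genes in 9 of 21 (0.53 at day 5 and -0.86 at day 3). Pluripotency genes had nearly the same median on both days, at 2.72 at day 5 and 2.70 at day 3, while 8 of 20 differed between the days, 5 more positive and 3 more negative at day 5.

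**Figure D4:**
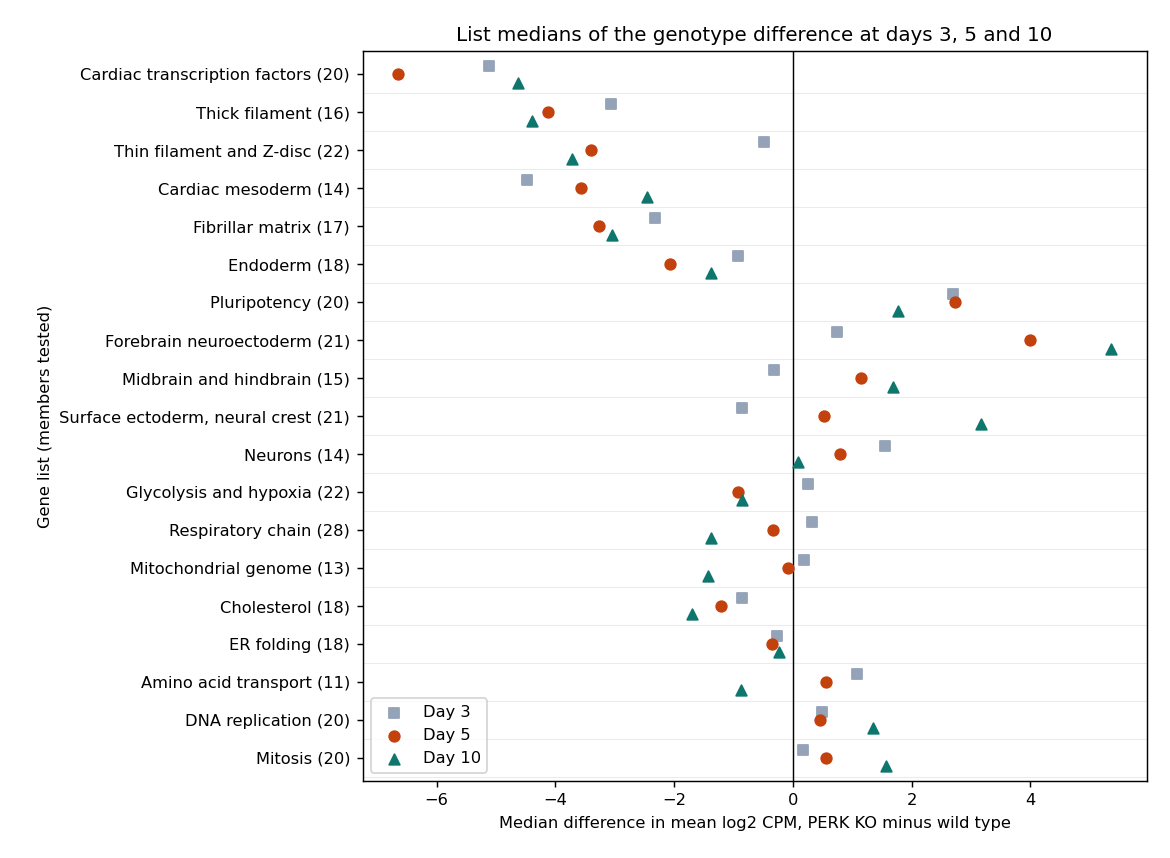
Median over the members of 19 gene lists of the difference in mean log2 CPM between PERK KO and wild type, at days 3 (squares), 5 (circles) and 10 (triangles). Glycolysis genes cross from 0.25 at day 3 to -0.93 at day 5, and forebrain genes climb from 0.74 to 3.998.

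Against day 10 the genotype difference of day 5 differed for 7615 genes (38.5%), more positive at day 5 for 3609 (18.3%) and more negative for 4006 (20.3%). SCUBE1 was again among the named genes, at 1.94 ± 0.173 CPM in PERK KO and 34.5 ± 3.70 CPM in wild type at day 5, and 112 ± 6.75 CPM in PERK KO and 5.12 ± 0.758 CPM in wild type at day 10 (difference -8.62 ± 0.24, edgeR adjusted p = 8.29e-22). ENC1, a neural actin-binding protein, and TPBG, a WNT-modulating glycoprotein, were likewise more negative at day 5, with differences of -7.63 ± 0.25 and -5.63 ± 0.18 (edgeR adjusted p = 2.32e-20 and 7.83e-21). COL2A1, the cartilage and notochord collagen, averaged 4.08 ± 0.460 CPM in PERK KO and 1105 ± 92.6 CPM in wild type at day 5, and 569 ± 102.5 CPM in PERK KO and 1084 ± 196 CPM in wild type at day 10.

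TDGF1 ran the other way, with a difference of 6.73 ± 0.27 (edgeR adjusted p = 6.09e-18). By day 10 it averaged 1.87 ± 0.997 CPM in PERK KO and 15.4 ± 1.47 CPM in wild type. VAT1L, UAP1L1 and FAM189A2 were more positive at day 5 by 5.36 ± 0.20, 7.63 ± 0.28 and 5.47 ± 0.22 on the log2 scale (edgeR adjusted p = 1.13e-18, 2.84e-19 and 6.22e-18). Respiratory chain genes were more positive at day 5 than at day 10 in 23 of 28 cases, and mitochondrial genome transcripts in 13 of 13, with medians of -0.09 at day 5 and -1.42 at day 10 for the mitochondrial genome. Mitosis and replication genes were each more negative at day 5 in 14 of 20 cases. Surface ectoderm and crest genes were more negative in 17 of 21, with medians of 0.53 at day 5 and 3.16 at day 10.

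**Figure D5:**
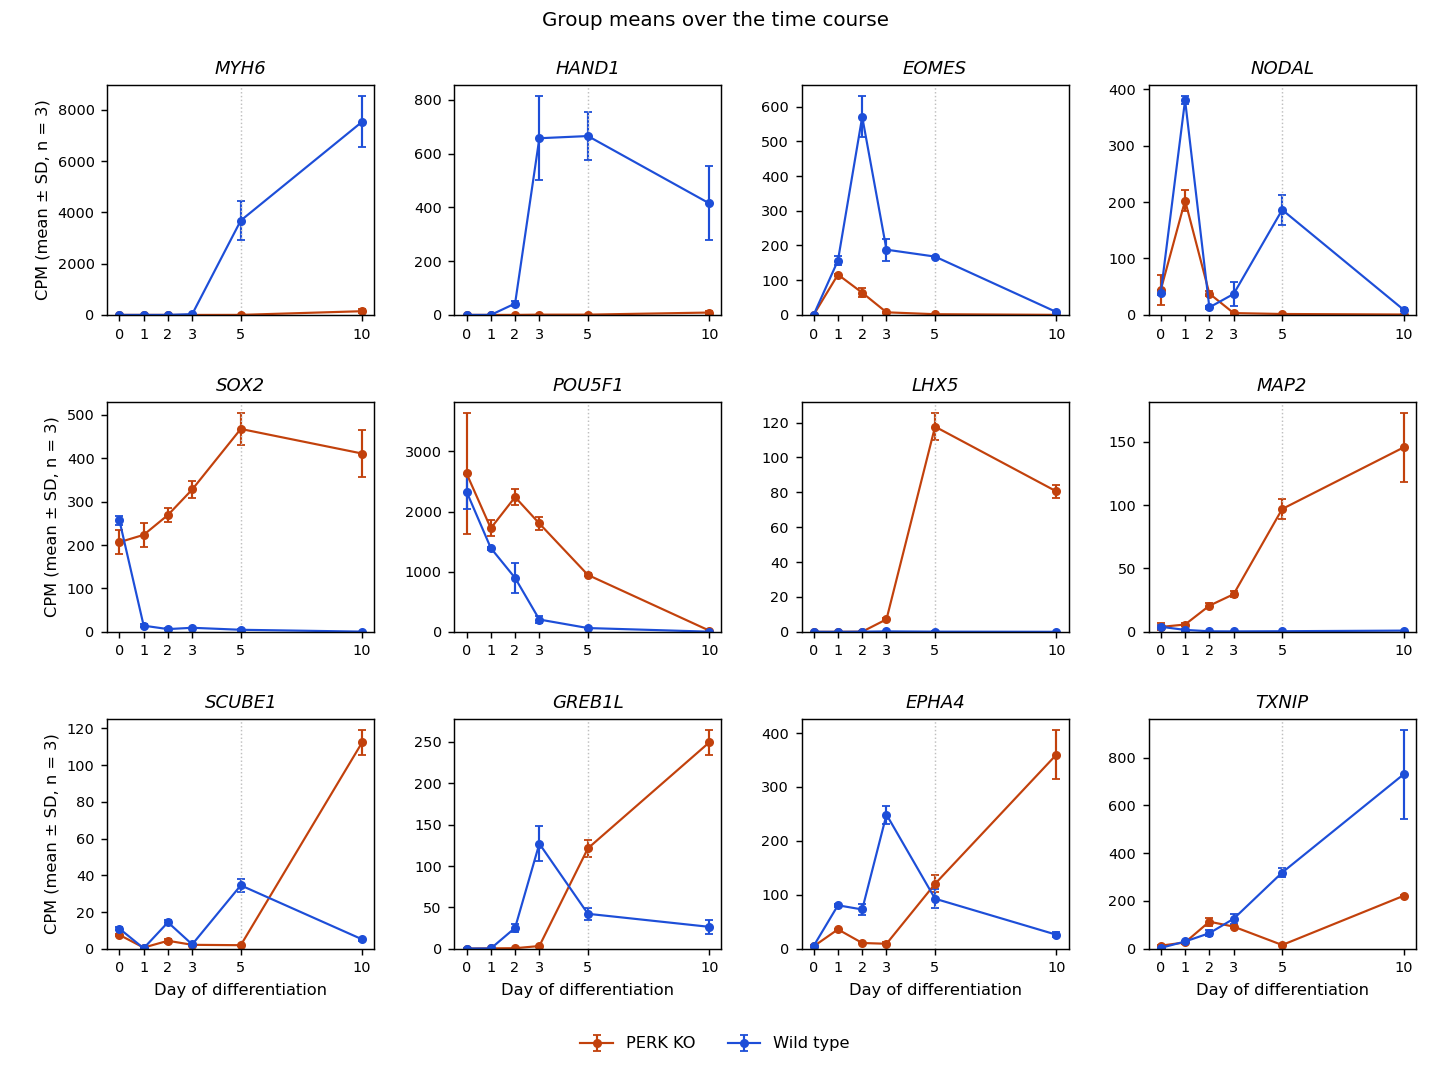
Mean CPM with SD (n = 3 libraries) of 12 genes at days 0, 1, 2, 3, 5 and 10 in PERK KO and wild type, with day 5 dotted. MYH6, HAND1, EOMES and NODAL stand apart in wild type at day 5, SOX2, POU5F1, LHX5 and MAP2 in PERK KO, and GREB1L, EPHA4, SCUBE1 and TXNIP change their genotype difference between neighbouring days.

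The wild type time course gave gene sets chosen without the day 5 libraries, from its day 3 and day 10 libraries. EdgeR called 10972 genes (55.5%) between those days in wild type, with 3390 (17.1%) at least 2-fold higher and 3340 (16.9%) at least 2-fold lower at day 10. Of the genes that rose in wild type, 1502 (44.3%) were lower and 724 (21.4%) higher in PERK KO at day 5 (median -0.55). Of those that fell in wild type, 1547 (46.3%) were higher and 706 (21.1%) lower in PERK KO at day 5 (median 0.54). Over all genes tested, 30.5% were lower and 28.6% higher in PERK KO at day 5. The set that rose held 24.9% of all lower calls of day 5, and the set that fell held 27.4% of all higher calls.

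Each day 5 library was also placed on a line from wild type day 3 (0) to wild type day 10 (1), using the 6810 genes with a difference in mean log2 CPM of 1 or more between these points. The PERK KO libraries lay at 0.102, 0.107 and 0.0977 and the wild type libraries at 0.311, 0.284 and 0.321. The difference of -0.20 gave p = 0.1 in a two-sided exact permutation test, which is the smallest p that 3 against 3 allows. The root mean square difference in log2 CPM from the PERK KO day 5 libraries was 0.664 to 0.694 to the PERK KO day 3 mean, 1.42 to 1.46 to the wild type day 3 mean and 1.58 to 1.62 to the wild type day 5 mean. Among the wild type means, that of day 0 was the nearest to each PERK KO day 5 library, at 1.139 to 1.154. Low values on this line therefore did not place the PERK KO libraries near wild type day 3.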

How the data were processed

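RNA-seq libraries were made with a VAHTS mRNA kit from total RNA, per the labels' protocols. CASAVA, FastQC, STAR, RSEM and the builds GRCh38 and hg38 are named in the submitters' processing notes, without versions. The deposited files hold the authors' RSEM expected counts per gene, also as 1 matrix of the same values, and TPM, which was read but enters no test. All 58721 gene IDs matched GENCODE release 29, and whether counting used strand is not given in the sources used here.

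Expected counts were rounded. EdgeR 4.0.16 (R 4.3.3) fitted 36 libraries in 12 groups of genotype and day, with TMM scaling, its filter on low counts (19772 genes kept) and the quasi-likelihood F test, with adjusted p under 0.05. CPM are TMM scaled, and log2 CPM use a prior count of 2. The SE is the log2 fold change over the square root of F. Intervals of ratios cover counting error only.

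The genes tested were all genes, and members and lists were chosen with earlier results of these data known. Named genes were EIF2AK3, the 10 largest called changes of protein-coding genes each way (no overlap, and a mean of 5 CPM or more in a genotype), list anchors or the 5 members with the smallest p, and the 8 interaction genes with the smallest p per contrast. Others are marked in the text as named after their values were seen, or complete a count. Some genes that the rule names are not reported here. Alternatives were DESeq2 1.42.0, RLE scaling, other filters, the matrix, a replicate block, transcript length and GC content offsets, the 6 day 5 libraries alone, and libraries left out. Same-numbered replicates of the genotypes did not deviate together (correlations -0.06, -0.08 and 0.05 over 15209 genes). Genes with near-identical copies (MYH6 and MYH7, ACTC1 and ACTA1, LEFTY1 and LEFTY2) share reads by estimation.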

Additional observations from a re-analysis of the deposited data

Results flagged for a closer look

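Genes whose genotype difference at day 5 differed from that at another day, by the interaction test in edgeR, numbered 4073 against day 3 and 7615 against day 10. Against day 3 the largest shifts among the genes named by smallest p were 6.80 (GREB1L), 5.13 (EPHA4) and 3.48 (RHOU) toward PERK KO on the log2 scale, and -4.03 (SCUBE1), -3.74 (STAC), -3.91 (TXNIP) and -3.84 (CCDC80) toward wild type. Against day 10 they were 7.63 (UAP1L1), 6.73 (TDGF1), 5.47 (FAM189A2) and 5.36 (VAT1L) toward PERK KO at day 5, and -8.62 (SCUBE1), -7.63 (ENC1), -7.15 (COL2A1) and -5.63 (TPBG) toward wild type at day 5. What sets these shifts was not tested. With 3 libraries per group, the gap test for single outlying libraries, which needs 4 or more, was not run.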

How the results depend on the processing

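The number of genes called at day 5 was 11675 and ranged from 10532 to 11006 when a day 5 library was left out. Over the same omissions, calls that were higher ranged from 5040 to 5338, lower from 5453 to 5708, and those at least 2-fold apart from 6941 to 7321. The interaction count against day 3 ranged from 2473 to 6001, lowest without wild type day 3 replicate 1 and highest without wild type day 3 replicate 3, and that against day 10 from 6889 to 7733. Wild type day 10 against day 3 gave 9997 to 11112, and the difference in position -0.21 to -0.20. A fit with the replicate block called 11749 genes at day 5, 4249 against day 3 and 7794 against day 10, and the 6 day 5 libraries called 12734 without and 12527 with the replicate block. The numbers do not pair the samples. DESeq2 called 11885 genes, the matrix 11675, the transcript length offset 10861, and 13150 were called with replicate 2 of PERK KO day 0 and replicate 3 of wild type day 2 left out, a pair chosen from an earlier analysis of these data. With CPM from plain library totals, the log2 ratio of marker sums moved beyond its spread for pluripotent (2.31), neuron (3.36) and primitive streak markers (-5.90), and the cause was not tested. Of 334 gene results followed, 300 kept call and direction in every alternative, and no gene called in either fit turned sign. Uncalled genes turned sign as follows (log2): EIF2AK3 (0.044) and ALDH1A2 (-0.61) with the transcript length offset; SHMT2 at day 5 without wild type replicate 3 (-0.030, up to 0.16 without replicate 1); TAGLN at day 5 without wild type replicate 2 (-0.0042, up to 0.22 without replicate 3); and ID1 at day 5 with the GC content offset (0.36), the 6 day 5 libraries without and with the replicate block (0.016 and 0.016), the stricter filter (0.013) and without wild type replicate 1 (2.2e-06) or 3 (0.0062), its lowest being -0.055 without wild type replicate 2. Genes whose call changed include ATF4, MKI67, RYR2, PECAM1, TRIB3, CEBPB, NPPA, ATP2A2, SOX10, MYLPF, MYH3 and EPHA4, besides those given with the GC content offset. Depth of 16.6 to 23.3 M counts limits genes under about 1 CPM, where few counts decide a ratio.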

Other observations

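Long non-coding genes were named by the same size rule as the protein-coding genes. LINC01467 had no count in PERK KO and 6.52, 8.35 and 9.41 CPM in wild type, and MIR1-1HG-AS1, at the host gene of the muscle microRNA miR-1, had 0.115, 0.216 and 0.0511 CPM in PERK KO and 67.8, 56.4 and 79.3 CPM in wild type. TBX2-AS1, antisense to TBX2, had 0, 0.0540 and 0 CPM in PERK KO and 26.0, 19.5 and 21.9 CPM in wild type. In the other direction LINC01833 had 59.6, 52.8 and 48.6 CPM in PERK KO and 0, 0.221 and 0.357 CPM in wild type, JAKMIP2-AS1 had 27.7, 25.2 and 26.7 CPM in PERK KO and 0, 0.111 and 0.0892 CPM in wild type, and MIR124-2HG, a host gene of the neuronal microRNA miR-124, had 5.29, 4.27 and 5.57 CPM in PERK KO and 0, 0.0553 and 0 CPM in wild type. LHX5-AS1 had 6.43, 5.78 and 3.88 CPM in PERK KO and no count in wild type. Because the use of strand in counting is not given, reads of antisense genes cannot be told apart from those of their partners. Over all tested genes, 256 of 985 lincRNAs were higher and 197 lower, and 209 of 1247 antisense genes were higher and 250 lower, beside 4829 higher and 5224 lower of 15802 protein-coding genes.

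Some genes without a known tie to the heart or the neural plate also separated the genotypes at day 5. CTSF, a lysosomal protease, had 2.30, 1.73 and 1.99 CPM in PERK KO and 33.2, 31.1 and 27.7 CPM in wild type, LY6E, an interferon-inducible surface protein, had 0.0575, 0 and 0.0511 CPM in PERK KO and 2.47, 1.88 and 2.01 CPM in wild type, ZNF492, a zinc finger gene with near-identical neighbours, had 22.4, 20.6 and 23.4 CPM in PERK KO and 1.14, 1.77 and 1.16 CPM in wild type, and NHLRC1, a ubiquitin ligase of glycogen metabolism, had 1.61, 1.46 and 1.12 CPM in PERK KO and 0.0633, 0.221 and 0.178 CPM in wild type. These 4 were listed because they stood out at day 0 in this same series, so their values are a description. Their day 0 means already differed in the same direction. Those means were 0.0801 CPM in PERK KO and 14.9 CPM in wild type for CTSF, and 0.1096 and 5.105 CPM for LY6E. For ZNF492 they were 40.98 CPM in PERK KO and 3.419 CPM in wild type, and for NHLRC1 5.374 and 0.911 CPM. The means of CTSF, LY6E and ZNF492 kept that direction at every sampled day, and those of NHLRC1 did not.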
